A study of Caenorhabditis elegans with 12 samples.

Results

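Helitrons are DNA transposons that copy themselves by a rolling-circle route. Their autonomous copies encode a protein in which a replication initiator nuclease is joined to a helicase of the PIF1 kind, while other copies lack this protein and depend on it being made elsewhere. In Caenorhabditis elegans they lie mostly on the chromosome arms, where nucleosomes often carry methylation on lysine 9 of histone H3 (H3K9). MET-2 places the mono- and dimethyl marks there and SET-25 the trimethyl mark. Worm Helitrons are also known for holding binding sites of the heat shock factor HSF-1.

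The members described here are the repeat families whose name starts with Helitron, 7 of the 392 families in the deposited repeat table. They are HelitronY1A_CE, HelitronY4_CE, HelitronY1_CE, Helitron2_CE, Helitron1_CE, HelitronY2_CE and HelitronY3_CE, and all 7 passed the filter on low counts, which 257 families passed in all. The counts come from ribosome-depleted total RNA of early embryos (1 to 300 cells, before the bean stage), grown at 20 °C and harvested 60 to 65 h after the worms had been synchronized as L1 larvae. Wild type N2 (Bristol) was sequenced beside worms with the allele met-2(n4256), worms with set-25(n5021) and a double mutant that joins met-2(n4256) to set-25(n5021). Each genotype had 3 libraries, named by the letters a, b and c of their columns. The 12 libraries thus let the RNA level of each family be compared when the gene of either H3K9 methyltransferase, or of both, is mutated. The labels speak of 2 independent biological replicates per strain beside 3 listed libraries, so p-values measure the spread between these libraries, part of which may be technical.

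Libraries held 16929810 to 52683919 gene counts and 186996 to 622244 repeat counts. The met-2 and set-25 groups were sequenced less deeply (16929810 to 25667207 gene counts) than N2 and the double mutant (41033729 to 52683919), so depth and any batch that goes with it cannot be told apart from genotype. RNA of the met-2 gene stood at 314 to 330 CPM (counts scaled to 1e+06 per library) in N2, at 51.03 to 54.25 CPM in the double mutant and at 215 to 313 CPM in the libraries labelled met-2. Their log2 change of -0.27 (SE 0.16, edgeR adjusted p = 0.0757) did not pass the threshold, and every direction given for this group therefore belongs to libraries so labelled. RNA of the set-25 gene was at 181 to 218 CPM in N2 and at 37.3 to 40.1 CPM in the set-25 libraries. It was also lower in the libraries labelled met-2, at 77.2 to 115 CPM (log2 change -0.95, SE 0.20, edgeR adjusted p = 1.00e-04), and at 57.5 to 62.3 CPM in the double mutant. The sources used here do not say where in these transcripts the alleles lie, so remaining RNA alone does not tell whether an allele is present. By the labels, however, the met-2 libraries and the double mutant carry the same met-2 allele. Their met-2 RNA differed all the same, by -2.35 on the log2 scale (double mutant against met-2, SE 0.16, edgeR adjusted p = 5.98e-07). The met-2 label is therefore in doubt, and the reason for this difference was not tested. Maternal and early zygotic marker genes of the early embryo had counts in all 12 libraries, perm-2 apart. Their levels differed by genotype, which is given beside the Helitron results.

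CPM values are scaled by the gene table, as counts over the effective library size (gene counts times the TMM factor of edgeR). The choice matters for the single mutants: with library totals in place of TMM, the 14260 tested genes had a median log2 change from N2 of 0.32 (met-2), 0.37 (set-25) and 0.00315 (double mutant), where TMM gave 0.05, 0.07 and -0.00596. Helitron calls that differ under library totals are given beside the results, and turned signs there or in the closing section. Reads of a Helitron copy inside a host transcript cannot be told apart from a Helitron transcript in these counts. Fewer expressing cells and less RNA per cell cannot be told apart either.

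The Helitron families covered 1308 kb of the 12870 kb of width listed for all repeat families, or 10.2%, and took 3.01 to 6.14% of the repeat counts per library. HelitronY1A_CE was the widest member with 479 kb, rank 3 of the 392 families by width, and gave the most counts, 2308 to 10240 per library. HelitronY3_CE was the narrowest with 17.02 kb and 206 to 1119 counts per library. The width column is taken as the summed length of the copies, which the sources used here do not state.

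Per length the order was different. In N2, HelitronY3_CE stood at 1.33 ± 0.170 CPM per kb (SD, n = 3) and HelitronY2_CE at 1.03 ± 0.101 CPM per kb. These 2 narrow families lay above the median of 0.514 CPM per kb of the 257 tested families. HelitronY1A_CE followed at 0.450 ± 0.0158 CPM per kb, Helitron2_CE at 0.444 ± 0.0356 and Helitron1_CE at 0.411 ± 0.0195, and these 3 neighbours differed by about as much as their libraries did. HelitronY4_CE had 0.329 ± 0.0118 and HelitronY1_CE 0.292 ± 0.0141 CPM per kb. In the libraries labelled met-2 the first places changed, with HelitronY2_CE at 1.45 ± 0.179 and HelitronY3_CE at 0.938 ± 0.0912 CPM per kb.

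**Figure D1:**
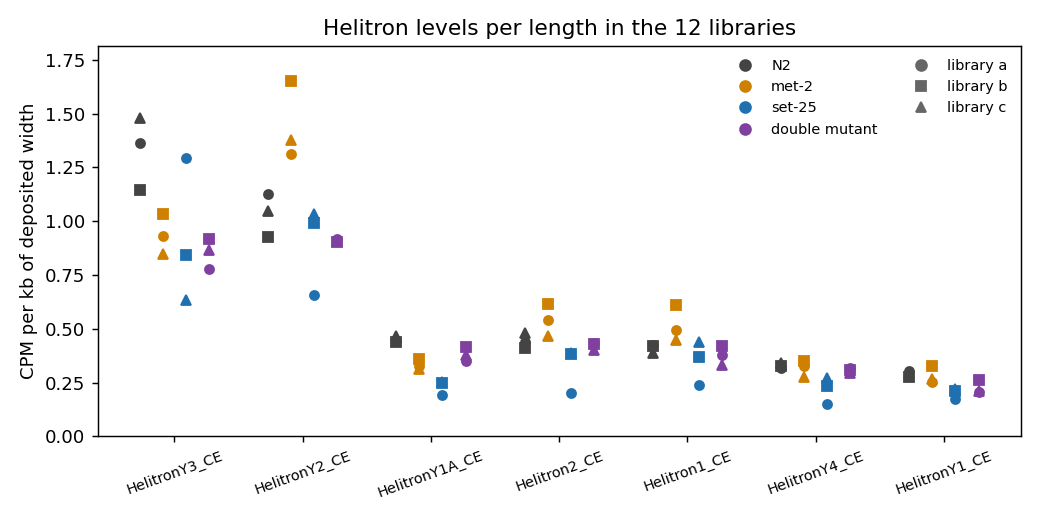
CPM per kb of deposited width (y axis) for the 7 Helitron families (x axis, ordered by their N2 mean), with 1 point per library, colours for genotypes and shapes for libraries a, b and c. HelitronY3_CE and HelitronY2_CE lie above the other 5 families in N2, at means of 1.33 and 1.03 CPM per kb.

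Summed over the 7 families, Helitron RNA stood at 572, 544 and 590 CPM in N2 libraries a, b and c. The libraries labelled met-2 had 537, 620 and 504 CPM, the set-25 libraries 288, 403 and 425 CPM and the double mutant 477, 523 and 477 CPM. With TMM scaling the set-25 libraries lay below all others, and the double mutant below N2, while met-2 and N2 overlapped. With library totals the means were 514 ± 19.4 CPM in N2, 603 ± 63.2 in met-2, 414 ± 72.7 in set-25 and 448 ± 20.9 in the double mutant (SD, n = 3), so that the libraries labelled met-2 then lay above N2. The set-25 libraries (334.5 to 477.3 CPM) then overlapped the double mutant (431.7 to 471.5 CPM). As a share of repeat counts, which needs no library size, Helitrons took 4.21 ± 0.481% in N2, 5.64 ± 0.507% in met-2, 3.67 ± 0.659% in set-25 and 3.88 ± 0.00891% in the double mutant. By that share the set-25 libraries (3.005 to 4.321%) overlapped both N2 (3.653 to 4.528%) and the double mutant (3.877 to 3.894%). No p is given for a sum over members.

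**Figure D2:**
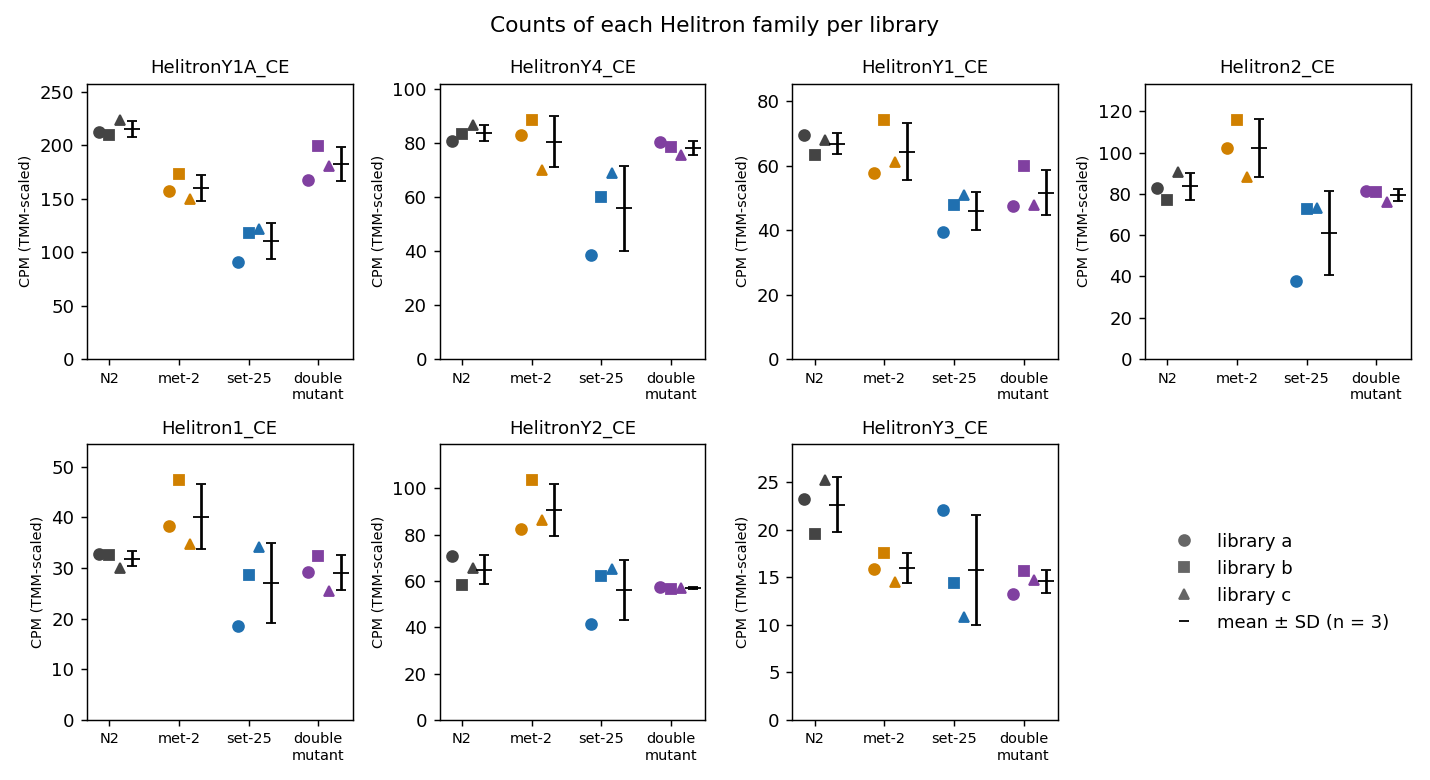
TMM-scaled CPM (y axes, each from 0) of the 7 Helitron families in the 4 genotypes, with 1 point per library and the mean ± SD of 3 libraries as a black bar. HelitronY1A_CE lies at 121.7 CPM or less in every set-25 library, below all N2 libraries (209.5 CPM or more), and set-25 library a is the lowest of its group in all families but HelitronY3_CE, where it is the highest.

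The first comparison set the set-25 libraries against N2. HelitronY1A_CE, HelitronY4_CE and HelitronY1_CE fell in the set-25 libraries and no Helitron family rose. Among all 257 repeat families, 14.8% were called lower and 4.67% higher in this comparison (edgeR quasi-likelihood test with Benjamini-Hochberg adjustment over all families). All 7 members had negative log2 changes, with a median of -0.52 beside -0.16 over all families. With library totals only HelitronY1A_CE passed, the members' median was -0.21 beside 0.14, and the signs of Helitron1_CE (0.06) and HelitronY2_CE (0.09) turned. Fitted with only the 6 libraries compared, 1 family, HelitronY1A_CE, was lower, and leaving out 1 library at a time gave 1 to 4 families.

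HelitronY1A_CE had 212.5, 209.5 and 223.9 CPM in N2 libraries a, b and c and 91.1, 117.8 and 121.7 CPM in set-25 libraries a, b and c. The groups did not overlap, and the highest set-25 library was well under the lowest N2 library. The log2 change was -0.97 (SE 0.14, adjusted p = 1.14e-04), or 0.512 of the N2 level. Across all 20 other settings tried, which leave out libraries or change scaling, filter, test or model, it lay between -1.04 and -0.67, with adjusted p of at most 0.00169.

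The other calls in set-25 were weaker. HelitronY4_CE had 80.7, 83.5 and 86.7 CPM in N2 and 38.4, 59.9 and 69.0 CPM in set-25, which is -0.59 on the log2 scale (SE 0.26, edgeR adjusted p = 0.0306). Library totals gave -0.29 (adjusted p = 0.247). HelitronY1_CE, which shares its name stem with HelitronY1A_CE, had 69.4, 63.2 and 67.8 CPM in N2 and 39.3, 47.8 and 50.8 CPM in set-25. On the log2 scale it changed by -0.54 (SE 0.12, edgeR adjusted p = 0.0214), and by -0.24 under library totals (adjusted p = 0.266). In neither family did the groups overlap. HelitronY4_CE passed in 14 and HelitronY1_CE in 15 of the 20 other settings, and HelitronY4_CE lost its call without any 1 of the N2 libraries a, b or c or without set-25 library b. HelitronY1_CE lost it without N2 library a or c or set-25 library b.

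Helitron2_CE was at 77.2 to 90.5 CPM in N2 and at 37.7, 72.5 and 73.1 CPM in set-25, with no overlap and a log2 change of -0.45 (SE 0.32, adjusted p = 0.149). Counting it, 4 of 7 members lay below N2 without overlap, where 25.7% of tested families did. Helitron1_CE was at 30.1 to 32.8 CPM in N2 and at 18.5, 28.7 and 34.1 CPM in set-25, and HelitronY2_CE at 58.1 to 70.7 and at 41.3, 62.2 and 65.0 CPM. In both of these the groups overlapped, and neither passed the test (adjusted p = 0.437 and 0.418, edgeR). HelitronY3_CE went the other way within the group: its set-25 libraries a, b and c had 22.1, 14.4 and 10.8 CPM, against 19.5 to 25.2 CPM in N2. Without set-25 library a it passed the threshold, with a log2 change of -0.84 (adjusted p = 0.00210).

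Set-25 library a thus stood apart from libraries b and c in most members. The summed level of 15 muscle and pharynx genes was 313, 950 and 1365 CPM in set-25 libraries a, b and c, against 712 to 1084 CPM in N2. By single genes, 9 of these 15 were higher and 1 lower in set-25, with a median log2 change of 1.52. Of all genes, 24.2% were higher and 21.6% lower in set-25. None of these 15 genes was at 0 in any library. The summed level of 20 maternal transcripts was 1989 to 2749 CPM in set-25 and 5563 to 7093 CPM in N2, with 16 of 19 tested members lower. In the maternal list only perm-2 was at 0 in any library, in 4 of the 12. The part of embryo age or tissue make-up in the Helitron values was not tested.

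In the libraries labelled met-2, HelitronY1A_CE fell and HelitronY2_CE rose against N2, and the other 5 families did not pass. Of all repeat families, 34.6% were called higher and 9.73% lower here, and the members' median log2 change of -0.05 stood beside 0.39 for all families. With library totals these medians were 0.22 and 0.66. HelitronY1A_CE had 157.5, 173 and 149.2 CPM in these libraries, all below N2, or -0.43 on the log2 scale (SE 0.07, edgeR adjusted p = 0.0176). Library totals gave -0.16 (adjusted p = 0.265), and it also lost its call without N2 library c or without met-2 library c. HelitronY2_CE had 70.7, 58.1 and 65.7 CPM in N2 and 82.3, 103.5 and 86.3 CPM in met-2, or 0.48 on the log2 scale (SE 0.13, edgeR adjusted p = 0.0314). The groups did not overlap. The call was lost when the repeat table set the scaling (0.18, adjusted p = 0.160) and without N2 library b, N2 library c or met-2 library b.

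Among the members not called in met-2, Helitron1_CE was at 34.8 to 47.3 CPM, above the N2 range, with a log2 change of 0.33 (SE 0.14, adjusted p = 0.170). Helitron2_CE was at 88.2 to 116 CPM and overlapped N2, with a change of 0.29 (SE 0.13, adjusted p = 0.256). Under scaling by library totals, Helitron1_CE, Helitron2_CE and HelitronY2_CE were called higher (0.60, 0.56 and 0.75), and no member was called lower. Of all repeat families, 139 were called higher and 17 lower under that scaling (257 were tested with TMM). HelitronY3_CE was at 14.5 to 17.6 CPM, below the N2 range of 19.5 to 25.2 CPM, with a change of -0.50 (SE 0.14, adjusted p = 0.0662). HelitronY4_CE and HelitronY1_CE had log2 changes of -0.05 each, which became 0.22 each with library totals. Without overlap, 2 members lay below N2 (HelitronY1A_CE and HelitronY3_CE) and 2 above (Helitron1_CE and HelitronY2_CE), where 16% and 44.4% of tested families did. The maternal and muscle genes differed more between these libraries and N2 than any Helitron family did, with list medians of -1.60 and 2.52 on the log2 scale, and their part in the Helitron values was not tested.

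In the double mutant, which carries both alleles, no Helitron family was called against N2. Of all repeat families, 8.56% were called higher and 1.56% lower. At an unadjusted p under 0.05 there were 2 members, HelitronY3_CE and HelitronY1_CE, and DESeq2 called 0. All 7 log2 changes were negative, from -0.64 to -0.07, with a median of -0.19 beside -0.11 for all families, and library totals gave the same signs, while TMM of the repeat table turned HelitronY4_CE to 0.00181 and Helitron2_CE to 0.02. HelitronY3_CE had 23.2, 19.5 and 25.2 CPM in N2 and 13.3, 15.7 and 14.7 CPM in the double mutant, with no overlap and a log2 change of -0.64 (SE 0.13, adjusted p = 0.0776). HelitronY1_CE had 47.4, 59.8 and 47.8 CPM in the double mutant, also below N2, a change of -0.37 (SE 0.12, adjusted p = 0.159). Fitted with only N2 and double mutant libraries, these 2 families were called lower, and HelitronY3_CE was also called without set-25 library a or c, which changes the shared estimate of spread. HelitronY1A_CE had 168, 199 and 181 CPM, below the N2 libraries, a change of -0.24 (SE 0.08, adjusted p = 0.294). In 5 of 7 members the double mutant lay below N2 without overlap, where 23% of tested families did.

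**Figure D3:**
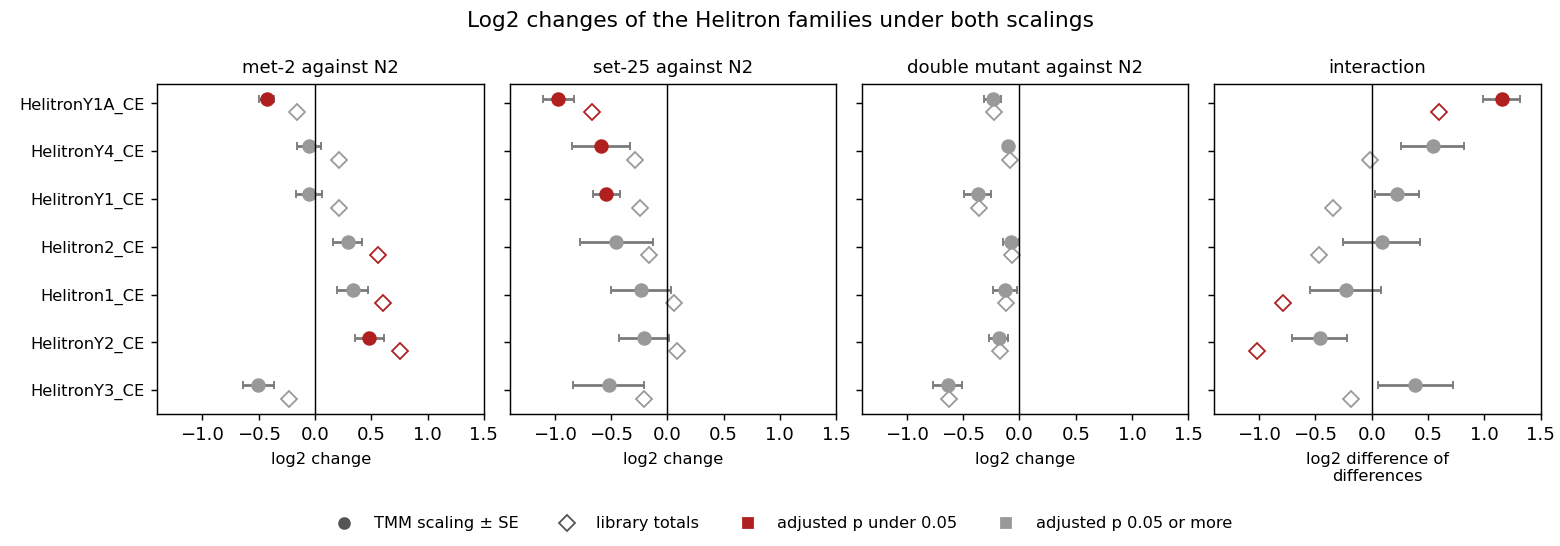
Log2 changes (x axes) of the 7 Helitron families in each mutant against N2, and the interaction, which is the double mutant minus both single mutants plus N2. Filled points with SE bars use TMM scaling and open diamonds library totals, and red marks an adjusted p under 0.05. HelitronY1A_CE in set-25 (-0.97 and -0.67) and in the interaction (1.16 and 0.60) is red under both scalings.

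The double mutant was next compared with each single mutant. HelitronY1A_CE was higher in the double mutant than in set-25, by 0.73 on the log2 scale (SE 0.15, adjusted p = 7.21e-04), from 110 ± 16.7 to 182 ± 15.7 CPM (SD, n = 3), and the libraries did not overlap. HelitronY4_CE and Helitron2_CE also lay higher without overlap, where 28% of tested families did. Of all repeat families, 19.5% were called higher and 4.28% lower there. The value stayed between 0.44 and 0.80 across 20 other settings, with adjusted p of at most 0.0147. The other 6 members were not called, and HelitronY4_CE came nearest at 0.49 (SE 0.26, adjusted p = 0.0624). Against the libraries labelled met-2, HelitronY2_CE was lower in the double mutant, at -0.67 on the log2 scale (SE 0.10, edgeR adjusted p = 0.00498). It fell from 90.7 ± 11.2 to 57.0 ± 0.421 CPM, and across 19 other settings the change lay between -0.93 and -0.27 with adjusted p of at most 0.0383. Of all tested families, 45.9% lay lower without overlap in that comparison, as did Helitron2_CE, Helitron1_CE and HelitronY2_CE among the members. There 35.4% of all families were called lower and 13.2% higher. With library totals, 4 members were lower, namely HelitronY1_CE, Helitron2_CE, Helitron1_CE and HelitronY2_CE, and leaving out set-25 library a also gave 4. Library totals called 134 of all repeat families lower and 21 higher there. The members' median was then -0.58 beside -0.64 for all families. With TMM of the repeat table, HelitronY1A_CE and HelitronY4_CE were called higher in that comparison.

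Between the single mutants, 6 of 7 members stood above their set-25 level in the libraries labelled met-2. HelitronY3_CE was not called, with a log2 difference of 0.02 (SE 0.31, adjusted p = 0.944) that turned to -0.03 with library totals and was negative in 7 of 19 other settings. The 6 of 7 stand beside 41.6% called higher and 3.11% lower among all repeat families. The members' median log2 difference was 0.54, beside 0.52 for all families. The 6 differences ran from 0.49 for HelitronY1_CE to 0.74 for Helitron2_CE, and in each of them every met-2 library lay above every set-25 library, where 43.6% of tested families were so placed and 2.72% the opposite way. When the repeat table itself set the scaling, 0 of the 6 were called, and when only these 6 libraries were fitted, 2 were, Helitron2_CE and HelitronY2_CE. Without met-2 library b, 2 remained called, HelitronY1A_CE and HelitronY2_CE. DESeq2 called 6. At an unadjusted p under 0.05, 6 members passed in the fit of all libraries.

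The interaction asks whether the met-2 mutation changes a family by the same factor in N2 and in the set-25 mutant. HelitronY1A_CE passed this test: the met-2 change was -0.43 against N2, but 0.73 in the set-25 background, a difference of 1.16 (SE 0.17, adjusted p = 2.67e-04). Of all repeat families, 15.6% were called higher and 21.4% lower in the interaction, with a median of -0.27. The value kept its sign and call in 18 other settings, from 0.60 with library totals upward to 1.34. The other 6 members did not pass. With library totals, 28 of all repeat families were called higher and 132 lower, with a median of -0.84. Among the members, HelitronY2_CE (-1.02, edgeR adjusted p = 0.00151) and Helitron1_CE (-0.79, edgeR adjusted p = 0.0203) were then called lower. Each of these values rests in part on the libraries labelled met-2, in which met-2 RNA did not pass the test against N2. The interaction also sets N2 and the double mutant against both single mutants, which were sequenced less deeply. Interaction values therefore cannot be told apart from depth or any batch that goes with it.

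The make-up of the Helitron counts is free of any library scaling. HelitronY1A_CE took 37.1, 38.5 and 37.95% of Helitron counts in N2 libraries a, b and c and 35.2, 38.1 and 37.9% in the double mutant. In the libraries labelled met-2 it took 29.3, 27.9 and 29.6%, and in set-25 31.6, 29.2 and 28.7%. Both single mutants thus lay below N2 and the double mutant without overlap, and N2 and the double mutant overlapped. HelitronY2_CE did the reverse, with 11.4 ± 0.861% in N2, 16.38 ± 0.934% in met-2, 15.01 ± 0.605% in set-25 and 11.6 ± 0.666% in the double mutant. For each HelitronY2_CE count there were 3.01, 3.61 and 3.41 HelitronY1A_CE counts in N2, 1.91, 1.67 and 1.73 in met-2, 2.21, 1.90 and 1.87 in set-25 and 2.92, 3.51 and 3.17 in the double mutant. Both single mutants were sequenced less deeply, so this split by genotype cannot be told apart from depth or any batch that goes with it. Counting intervals of these shares (95%, Wilson) were at most 2.13 percentage points wide and cover counting error only. An exact permutation test of 3 against 3 libraries cannot give a p under 0.1, so none was run.

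**Figure D4:**
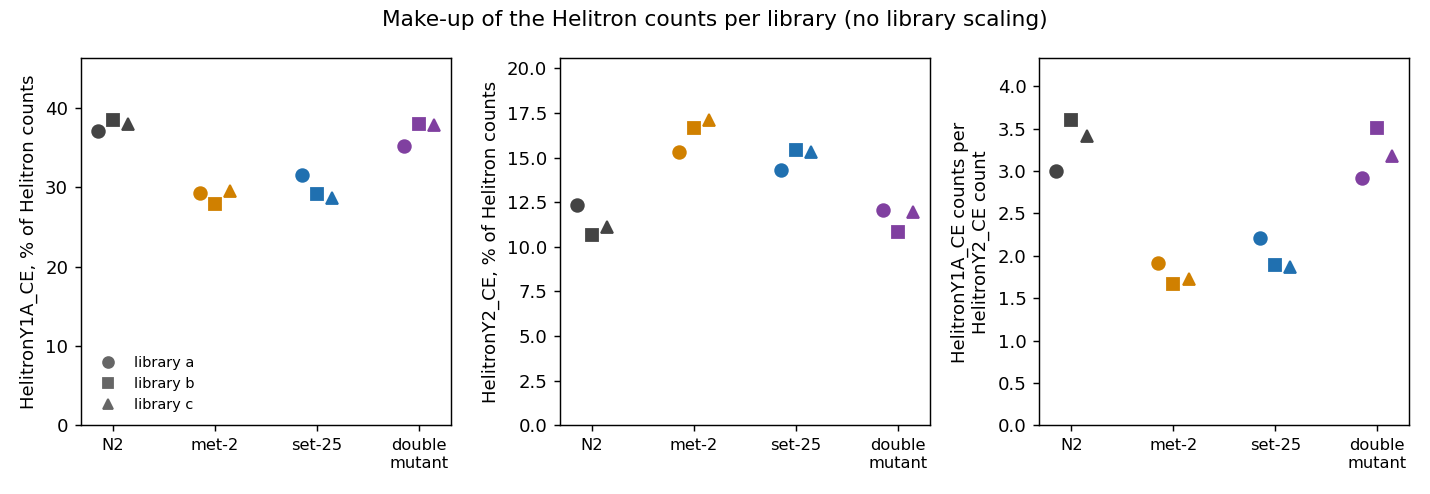
Share of HelitronY1A_CE and of HelitronY2_CE in all Helitron counts (% on the y axis) and the number of HelitronY1A_CE counts per HelitronY2_CE count, with 1 point per library. The single mutants lie below N2 and the double mutant for HelitronY1A_CE (27.9 to 31.6% against 35.2 to 38.5%) and above them for HelitronY2_CE.

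The same split of genotypes was seen in the maternal list. Its summed level was 5563 to 7093 CPM in N2 and 4897 to 5542 CPM in the double mutant, but 2183 to 2604 CPM in met-2 and 1989 to 2749 CPM in set-25. Of 19 tested maternal genes, 18 were lower in met-2, 16 in set-25 and 1 in the double mutant, where 29.6%, 21.6% and 3.34% of all genes were. Muscle and pharynx genes did not split that way, at 712 to 1084 CPM in N2, 1312 to 2804 CPM in met-2, 313 to 1365 CPM in set-25 and 1930 to 1963 CPM in the double mutant. Yolk protein genes, made by the mother's intestine, summed to 0.471 to 2.43 CPM in all libraries. Whether the maternal RNA content has a part in the HelitronY1A_CE share was not tested.

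The other members' shares moved by fewer percentage points, though not always by less relative to their level. HelitronY4_CE took 14.7 ± 0.631% in N2, 14.5 ± 0.809% in met-2, 14.8 ± 1.48% in set-25 and 15.9 ± 0.929% in the double mutant (SD, n = 3). HelitronY1_CE took 10.5 ± 0.851% in the double mutant and between 11.6 and 12.5% on average in the other groups. Helitron1_CE took 5.10 to 6.01% (N2) and 5.35 to 6.20% (double mutant) of Helitron counts, but 6.90 to 7.63% in met-2 and 6.41 to 8.03% in set-25, so that both single mutants lay above N2 and the double mutant without overlap, as for HelitronY2_CE. Helitron2_CE was at 14.7 ± 0.595% in N2, 18.4 ± 0.810% in met-2, and ranged over 15.45 to 17.07% in the double mutant and 13.09 to 17.98% in set-25. HelitronY3_CE was at 3.97 ± 0.351% in N2, 2.89 ± 0.0646% in met-2 and 2.95 ± 0.155% in the double mutant. In set-25 it took 2.55 to 7.65%.

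Across the 12 libraries the members followed each other to different degrees. The log2 CPM of HelitronY4_CE and Helitron2_CE had a Pearson correlation of 0.912, and those of Helitron1_CE and Helitron2_CE 0.907. HelitronY1A_CE and HelitronY2_CE stood at 0.314, and HelitronY3_CE at -0.209 to 0.361 with the other members. All points share library size and genotype, so these are descriptions. With the summed Helitron level, the repeat families of most similar pattern were CELE14B (0.978), CERP1 (0.955), LINE2A_CE (0.936), RC123 (0.892) and CERP3 (0.883). The genes were nstp-4 (0.967), Y50D7A.1 (0.937), pkc-1 (0.922), shc-2 (0.921) and F20G4.2 (0.918). CELE14B had a mean of 416 ± 11.5 CPM in N2, 418 ± 46.1 CPM in met-2, 277 ± 60.4 CPM in set-25 and 397 ± 16.8 CPM in the double mutant (SD, n = 3).

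Other transposon families by name are given side by side. Of 24 families named after the Tc, Mariner, hAT, Mirage, MuDR and Merlin DNA transposons, 12 were higher and 0 lower in met-2, and 2 were higher and 0 lower in set-25. Their median log2 changes were 0.48 and -0.00422, where the Helitron medians were -0.05 and -0.52. Among all 257 families 34.6% were higher and 9.73% lower in met-2, and 4.67% and 14.8% in set-25. Of 39 CER families of LTR retrotransposons, 35 were tested. Of these, 7 were higher and 5 lower in met-2 (median 0.16), and 5 and 3 in set-25 (median -0.17). The 3 NDNAX families had medians of 0.54 in met-2 and -0.26 in set-25, and NDNAX2_CE and NDNAX1_CE rose in met-2 by 0.59 (SE 0.14) and 0.54 (SE 0.16) on the log2 scale. With library totals the set-25 medians of the DNA transposon, CER and NDNAX families all turned positive, to 0.30, 0.13 and 0.04, where the Helitron median was -0.21. The difference between these classes was not tested.

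Genes that act on Helitron chromatin or share its factors were read from the gene table. Of 20 H3K9 methylation and heterochromatin factors, 1 was higher and 11 lower in met-2, 0 and 8 in set-25, and 2 and 2 in the double mutant. Of all genes, 35.2% were higher and 29.6% lower in met-2, 24.2% and 21.6% in set-25, and 8.7% and 3.34% in the double mutant. With library totals the list had 2 higher and 8 lower in met-2 and 5 and 6 in set-25. The list's medians were -0.44, -0.10 and -0.06, and the set-25 median turned to 0.20 with library totals. The HP1 homolog gene hpl-2 fell in met-2 by 0.61 on the log2 scale (SE 0.08, adjusted p = 0.00107). In set-25 it stood at -0.09, which turned to 0.22 with library totals. The gene of the H3K9 methyl reader LIN-61 stood at -0.27 (lin-61, SE 0.04, adjusted p = 0.144) in the double mutant and did not pass the test. The gene set-11, named for its SET domain, had only 0, 2 and 2 counts in the N2 libraries and 25, 17 and 10 in the double mutant, where it was called higher (adjusted p = 0.0212), as in met-2 with 19, 10 and 3 counts (adjusted p = 0.00364). Of 23 small RNA pathway genes in the table, 13 were lower in met-2, 7 lower and 1 higher in set-25 and 0 in the double mutant. With library totals this became 3 higher and 7 lower in met-2, and 9 higher and 4 lower in set-25. Of 17 genes for replication helicases and their partners, 10 were lower in met-2, 6 lower and 1 higher in set-25 and 0 in the double mutant. With library totals it became 1 higher and 4 lower in met-2, and 5 higher and 4 lower in set-25. The set-25 medians of these lists, -0.09 and -0.21, turned to 0.22 and 0.09 with library totals. The helicase gene pif-1, the cellular relative of the Helitron helicase, had log2 changes of -0.97 (SE 0.12) in met-2, -0.999 (SE 0.22) in set-25 and -0.07 (SE 0.07) in the double mutant, of which the first and the second passed.

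Heat shock genes are listed because HSF-1 sites lie in worm Helitrons. Of 22 tested, 9 were higher and 6 lower in met-2, again 9 and 6 in set-25, and 3 and 0 in the double mutant. The met-2 counts are shares near the 35.2% and 29.6% of all genes. In set-25, 24.2% of all genes were higher and 21.6% lower, and in the double mutant 8.7% and 3.34%. With library totals the heat shock counts were 10 and 4 in met-2 and 12 and 3 in set-25. The chaperone gene hsp-70 had 4.50 to 7.60 CPM in N2, 35.9 to 61.6 CPM in met-2, 10.6 to 15.5 CPM in set-25 and 5.15 to 5.67 CPM in the double mutant. It rose by 2.84 (SE 0.34, adjusted p = 7.51e-06) in met-2 and by 1.09 (SE 0.28, adjusted p = 0.00386) in set-25 on the log2 scale. The small heat shock gene hsp-16.2 rose by 1.56 (SE 0.29) and 0.86 (SE 0.23). The factor's own gene, hsf-1, fell in both, with log2 changes of -0.63 (SE 0.10) and -0.82 (SE 0.09), and stood at 0.01 (SE 0.07, adjusted p = 0.937) in the double mutant, a sign that turned without N2 library b or double mutant library c. The small heat shock genes hsp-43 and hsp-12.3 were called in all 3 comparisons. Their log2 changes were 3.63 and 2.33 in met-2, 3.28 and 1.79 in set-25 and 2.60 and 1.48 in the double mutant. The SE of hsp-43 was 0.82, 0.84 and 0.74 in these comparisons. Both genes were named for having the largest called changes of the list in the double mutant. They rest on few N2 counts, with 18, 12 and 1 for hsp-43 and 16, 15 and 9 for hsp-12.3.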

How the data were processed

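The authors deposited raw counts per gene and raw counts per repeat family for 12 libraries, in whole numbers without scaling, and a width column in other units (bases), per the file headers. Per the labels' protocols, total RNA (5 µg) was depleted of ribosomal RNA and made into libraries with a TruSeq mRNA kit. Which aligner, build and counting program made the counts, with which strand setting, and how reads with several matches were treated, the sources used here do not give. The duplicated genes hsp-16.1, hsp-16.11, hsp-16.48 and hsp-16.49 had 0 counts in all 12 libraries. Columns carry genotype and a letter, and were assigned to groups by name.

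A single quasi-likelihood model (edgeR 4.0.16 under R 4.3.3) covered the 12 libraries and the 257 families that passed filterByExpr, with effective library sizes (TMM) of the gene table. Tests were two-sided, and a family was called where its p, adjusted by Benjamini and Hochberg's method over all families, was under 0.05. The gene table was fitted alike (14260 genes). Of 27904 gene IDs, 26336 matched a RefSeq symbol by locus tag (assembly WBcel235). SE is taken from replicate log2 CPM with a prior count of 2. Alternatives used library totals, TMM of the repeat table, DESeq2 1.42.0 and its size factors, no filter, only the groups compared, and each library left out; a fit without the libraries labelled met-2 and one with the column letter as a block were added after seeing the data. Fits were tested on simulated data. Members and gene lists were chosen with earlier results of these data known. All Helitron families are named; beside them the rule named the 5 repeat families and 5 genes of most similar pattern and called or preset members of the lists, part of which are given. Genes whose annotated product names Helitron were part of the rule, but the reference used here holds no product names. The other lists (early zygotic, intestine, epidermis and neuron genes) are given in the closing section. Helitron sequences were not used here.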

Additional observations from a re-analysis of the deposited data

Results flagged for a closer look

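HelitronY1A_CE differed between the met-2 comparison in the N2 background and that in the set-25 background: the interaction was 1.16 on the log2 scale (edgeR adjusted p = 2.67e-04). The log2 change was -0.43 in the libraries labelled met-2 against N2 and 0.73 in the double mutant against set-25. Maternal transcripts had an interaction in the same direction, with a median of 2.66 beside -0.19 over all genes. Of 19 tested maternal genes, 17 were called higher, and the share of all genes so called was not counted. The part of maternal transcripts in the Helitron value was not tested.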

How the results depend on the processing

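HelitronY1A_CE in set-25 against N2, in the double mutant against set-25 and in the interaction, and HelitronY2_CE in the double mutant against met-2, kept direction and call in every setting tried. Of 357 family values under other settings, 295 kept direction and side of the threshold, as did 541 of 588 with a library left out; the cause of the other changes was not tested. The columns do not carry the replicate numbers of the titles, so the column letter was used as a replicate block, although no source says that a letter marks a shared batch. Most pairs of libraries with the same letter did not deviate together. The correlation was over 0.1 in 4 of 18 pairs over genes and in 6 of 18 over repeat families, with medians of -0.04 and -0.03. No library correlated best with its own letter in all other groups. With this block the number of members called was unchanged in all 7 comparisons, for example 3 lower in set-25 against N2, 6 higher in met-2 against set-25 and 1 higher in the interaction. The block and leaving out the libraries labelled met-2 were chosen after seeing the data, and leaving out those libraries changed no direction and no call.

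With library totals, met-2 against N2 had 3 members higher and 0 lower, set-25 against N2 had 1 lower, the double mutant against met-2 had 4 lower and the interaction 2 lower. Of all repeat families, library totals called 139 higher and 17 lower in met-2 against N2 and 25 and 23 in set-25 against N2. In the double mutant against met-2 they called 21 higher and 134 lower, and in the interaction 28 and 132. The signs turned in met-2 against N2 for HelitronY4_CE (0.22), HelitronY1_CE (0.22) and the gene met-2 (0.00466), and in set-25 against N2 for Helitron1_CE (0.0618), HelitronY2_CE (0.0886) and hpl-2 (0.22). They also turned for HelitronY1A_CE in the double mutant against met-2 (-0.0705), and against set-25 for HelitronY1_CE (-0.12), Helitron1_CE (-0.19) and HelitronY2_CE (-0.26). HelitronY3_CE in met-2 against set-25 turned to -0.0256, and in the interaction HelitronY4_CE to -0.0149, HelitronY1_CE to -0.34, Helitron2_CE to -0.46 and HelitronY3_CE to -0.19. The mean summed level became 514 CPM for N2 and 448 CPM for the double mutant.

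With TMM of the repeat table, met-2 against N2 had 0 members higher and 3 lower, the double mutant had 2 higher against met-2 and 2 against set-25, met-2 against set-25 had 0 higher and the interaction 3 higher. Signs turned for Helitron2_CE in met-2 (-0.0153), for HelitronY4_CE (0.00181) and Helitron2_CE (0.0238) in the double mutant, and against met-2 for HelitronY4_CE (0.36), HelitronY1_CE (0.0787), Helitron2_CE (0.0391) and HelitronY3_CE (0.26). HelitronY2_CE turned in the double mutant against set-25 (-0.0721), and HelitronY1_CE (-0.0283) and HelitronY3_CE (-0.59) in met-2 against set-25. Mean summed levels were then 448 CPM in met-2 and 524.7 CPM in the double mutant. DESeq2 size factors gave 2 members higher in the double mutant against set-25 and HelitronY3_CE at -0.0574 in met-2 against set-25. The DESeq2 test also gave 2 higher and -0.0580 there, with 2 lower in the double mutant against met-2 and 2 higher in the interaction. Fits of only the groups compared gave 2 lower in met-2, 1 in set-25 and 2 in the double mutant against N2, 3 lower in the double mutant against met-2 and 2 higher in met-2 against set-25.

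Leaving out 1 library at a time gave 0 to 3 members higher and 0 to 2 lower in met-2 against N2, 1 to 4 lower for set-25 and 0 to 1 lower for the double mutant. It gave 1 to 4 lower in the double mutant against met-2, 1 to 2 higher against set-25, 2 to 6 higher in met-2 against set-25, and 1 to 2 higher with 0 to 1 lower in the interaction. Values that crossed 0 were HelitronY4_CE (-0.13 to 0.0373) and HelitronY1_CE (-0.17 to 0.0187) in met-2, the gene met-2 in set-25 (-0.0359 to 0.0897), hsf-1 in the double mutant (-0.0479 to 0.0686) and HelitronY4_CE in the double mutant against met-2 (-0.13 to 0.0320). Against set-25 these were Helitron1_CE (-0.11 to 0.30), HelitronY2_CE (-0.16 to 0.14) and HelitronY3_CE (-0.32 to 0.21). The others were HelitronY3_CE in met-2 against set-25 (-0.19 to 0.34) and Helitron2_CE in the interaction (-0.16 to 0.24). The lowest count of any member in a library was 206, and with 3 libraries per genotype small differences were not detectable.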

Other observations

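Called shares of all genes were 35.2% higher and 29.6% lower in met-2, 24.2% and 21.6% in set-25, and 8.7% and 3.34% in the double mutant (edgeR). Early zygotic genes, which the embryo itself first transcribes, were lower in 15 of 15 tested cases in the libraries labelled met-2, in 9 in set-25 and in 0 in the double mutant, with a median log2 change of -0.42. Of 9 tested intestine genes, 7 were higher and 1 lower in met-2, 4 and 2 in set-25, and 1 and 0 in the double mutant, and asp-1, which encodes a protease, had log2 changes of 6.96, 4.93 and 4.36 in met-2, set-25 and the double mutant. Of 9 tested epidermis and cuticle genes, 7 were higher and 2 lower in met-2, 5 and 2 in set-25, and 4 and 0 in the double mutant, with log2 changes of 11.9, 10.5 and 7.51 for col-74 and 9.23, 7.58 and 5.15 for cut-3. These folds stand against 1 to 6 col-74 counts and 4 to 12 cut-3 counts per N2 library. The 11 neuron genes summed to 535 to 571 CPM in N2 and 560 to 595 CPM in the double mutant. They summed to less in the single mutants, at 370 to 509 CPM in met-2 and 307 to 473 CPM in set-25. By single genes, 8 were higher and 2 lower in each single mutant, and 3 and 0 in the double mutant. Log2 changes in met-2, set-25 and the double mutant were 4.37, 3.04 and 2.52 for unc-13 and 3.39, 1.85 and 1.64 for egl-21. Among muscle genes, the log2 changes were 7.28, 5.33 and 3.38 for myo-1 and 3.78, 1.86 and 2.40 for ttn-1, in the same order of genotypes. The set-25 values vary widely (SE 1.32 for myo-1 and 0.94 for ttn-1). In set-25 libraries a, b and c, myo-1 stood at 1.34, 15.55 and 26.95 CPM and ttn-1 at 47.8, 206.7 and 298.5 CPM. For ttn-1, library a lay within the N2 range of 23.4 to 66.4 CPM. In set-25 library a, asp-1 and col-74 were also lowest. N2 libraries held only 11 to 21 myo-1 and 12 to 23 asp-1 counts. The maternal gene egg-1 had log2 changes of -1.49, -1.11 and -0.43 (adjusted p = 0.0495 in the double mutant, and 0.0736 with library totals). The yolk gene vit-1 passed in the double mutant, at 2.40 (SE 0.38), beside 0.21 in met-2 and 0.61 in set-25. It had only 13, 4 and 3 counts in the N2 libraries and 37, 39 and 30 in the double mutant. Of the 6 yolk genes only 2 were tested, with a median log2 change of 0.97 in the double mutant, and vit-1 alone was called.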
